A study of Mus musculus with 95 samples.

Results

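The kidney at baseline was compared with cerebral cortex, liver and white adipose tissue (WAT) of mice of the same strain. The kidney set was chosen by its labels alone: tissue Kidney and group time-0. It holds 8 of the 32 time-0 libraries and of 95 libraries in all. The reference is the other 24 time-0 libraries, 8 each of cortex, liver and WAT, and each of those 3 tissues carried equal weight. All mice are labelled C57BL/6J, an inbred laboratory strain, and each tissue has 4 libraries labelled F and 4 labelled M. The time-0 mice are 17.4 weeks old by the ages in the deposited table, and the labels name no allele, vector or drug for them. A control group and a group sampled after 3 months of a torpor-like state (TLS, labelled Stim), both 29.3 weeks old, were used only to repeat the comparison in libraries the time-0 fit did not see. No label states a transgene or how TLS was brought about. Every mouse was anaesthetised with isoflurane and perfused with saline before dissection. Polyadenylated RNA was sequenced, and total counts ran from 14304253 to 22921038 over the time-0 libraries and from 14304253 to 20951969 over the kidney libraries. Nothing in the labels states that each library comes from a separate animal, so p-values measure the spread between these libraries.

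The kidney filters plasma in the glomerulus, whose podocytes form the filtration slit, and then recovers most of the filtrate along a tubule of successive segments. The proximal tubule takes back sugar, amino acids, phosphate and filtered protein and secretes organic ions. The loop of Henle and distal convoluted tubule reabsorb salt, and the connecting tubule and collecting duct adjust water, potassium and acid. The organ also makes renin and active vitamin D, and its proximal tubule makes glucose, as the liver does.

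Several libraries stood apart before any comparison. Levels are CPM, counts relative to the library total after scaling by the trimmed mean of M-values (TMM), unless stated. Kidney replicate 8 had 21.91% of its counts in CT010467.1, a row linked to ribosomal RNA (kidney median 0.480%), and liver replicate 1 had 18.63%. Kidney replicate 3 was high in genes known from the adrenal gland, which lies on the kidney: its Star level was 54.6 CPM against a kidney median of 1.25. WAT replicate 6, labelled M, held 23970 CPM of Gpx5 and 15730 CPM of Lcn8, both known from epididymal epithelium. WAT replicate 3 had 22.5 CPM of Gpx5 and the other 6 time-0 WAT libraries had 0 counts. These Gpx5 and Lcn8 levels are relative to library totals, without TMM scaling. WAT replicate 6 also held the highest WAT level of 328 of the 661 kidney-enriched genes with any WAT count (49.6%). WAT replicate 8 had 69.3 CPM summed over the 15 leading kidney genes named below against a median of 1.47 over all time-0 WAT libraries. Both values are relative to library totals, without TMM scaling. Kap alone held 0.005506% of the counts of WAT replicate 8. With TMM scaling, Kap stood at 43.6 CPM in that library, Miox at 4.72, and Umod and Klk1 at 0.0890 each. Slc12a1, Kcnj1 and Ldc1 had 0. Where a printed log2 fold change over WAT moved by over 1.5-fold without WAT replicates 6 and 8, that value is given too.

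Of 18419 genes tested, 6473 (35.1%) were higher in kidney than the equal-weight mean of the 3 tissues and 5288 (28.7%) were lower, by edgeR's quasi-likelihood test with a Benjamini-Hochberg adjusted p under 0.05. Because so many genes passed, a stricter rule defined kidney-enriched genes: an adjusted p under 0.05 and a log2 fold change of at least 2, that is 4-fold, over each of the 3 tissues. It was met by 712 genes (3.87%), and the mirror rule for kidney-depleted genes by 173 (0.939%). In 607 of the 712 enriched genes every kidney library lay above all 24 others, and over all genes tested 1025 (5.56%) did so. The enriched genes took 15.09% to 20.76% of the counts of a kidney library. They took 0.459% to 0.503% in cortex, 0.183% to 0.291% in liver and 0.518% to 1.24% in WAT. In whole tissue, fewer cells of a type and less RNA per cell cannot be told apart, and this holds for every difference below.

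Among enriched genes, 482 averaged at least 10 CPM in kidney and 199 at least 100 CPM. Transporters of the solute carrier families (Slc and Slco symbols) made up 63 of the 712, or 8.85%, and 1.76% of all genes tested. The 5 genes just past the size limit were Tmem221, Ezr, Krt7, Gm37415 and Edaradd, with a smallest fold of 2.002 to 2.017 on the log2 scale. Those just short of it were Spa17, St8sia6, Myo5b, Spata17 and Vsig8, at 1.98 to just under 2. Leaving out WAT replicate 6 raised the number of enriched genes to 775, and leaving out WAT replicates 6 and 8 raised it to 806.

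The 15 enriched genes with the largest smallest-of-3 fold change, among those of at least 10 CPM, are known from several nephron segments. Umod encodes uromodulin, the most abundant protein of normal urine, made by the thick ascending limb. It measured 2267 CPM in the lowest kidney library, 3008 at the median and 4156 in the highest, and no other library exceeded 0.994. Its gene lies on the minus strand at chr7:119462711-119479282 (GENCODE annotation of GRCm38). Against WAT, the next tissue, its log2 fold change was 14.49 (SE 0.57, adjusted p = 3.97e-18, edgeR) and against liver 15.78. Without WAT replicates 6 and 8 the former was 15.57. The kidney libraries and the others did not overlap.

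Also from the thick limb came Slc12a1, the furosemide-sensitive sodium-potassium-chloride cotransporter, at 243, 598 and 850 CPM (lowest, median, highest). Kcnj1, the potassium channel that recycles potassium for it, had 163, 212 and 269 CPM. Slc12a1 had 5 counts over all cortex libraries, 1 over WAT and 0 over liver. Klk1, tissue kallikrein of the connecting tubule, ran from 1561 to 2632 CPM and was 13.43 higher than in WAT on the log2 scale (SE 0.53, adjusted p = 3.46e-18, edgeR), or 15.14 higher without WAT replicates 6 and 8.

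The proximal tubule supplied most of the rest. Kap, the androgen-regulated kidney protein, had the widest spread: 8714 CPM in the lowest kidney library, 18996 at the median and 57432 in the highest. Kap alone made up 1.07% to 5.31% of a kidney library's counts, and the highest level outside kidney was 43.6 CPM, in WAT. Its fold over WAT was 13.21 on the log2 scale and 15.50 without WAT replicates 6 and 8. Slc5a2, the sodium-glucose cotransporter SGLT2 targeted by gliflozin drugs, varied far less, with 676, 756 and 867 CPM. It was 13.17 higher than in WAT (log2, SE 0.44, adjusted p = 1.25e-19, edgeR), and 15.29 higher without WAT replicates 6 and 8.

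Miox, which opens the myo-inositol ring, had 2026 to 3058 CPM, and the brush-border protease subunit Mep1a had 940 to 1920. Slc6a18, a neutral amino acid transporter of the late proximal tubule, had 571 to 977 CPM, and the aldo-keto reductase Akr1c21 had 545 to 2047. Spink1, a trypsin inhibitor, and Serpina1f, a serpin, had medians of 479 and 226 CPM. Tmem52b, Gm4450 and Ldc1 completed the 15 with medians of 206, 106.7 and 87.96 CPM. None of the 24 other libraries exceeded 4.72 CPM for any of these 9 genes.

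**Figure D1:**
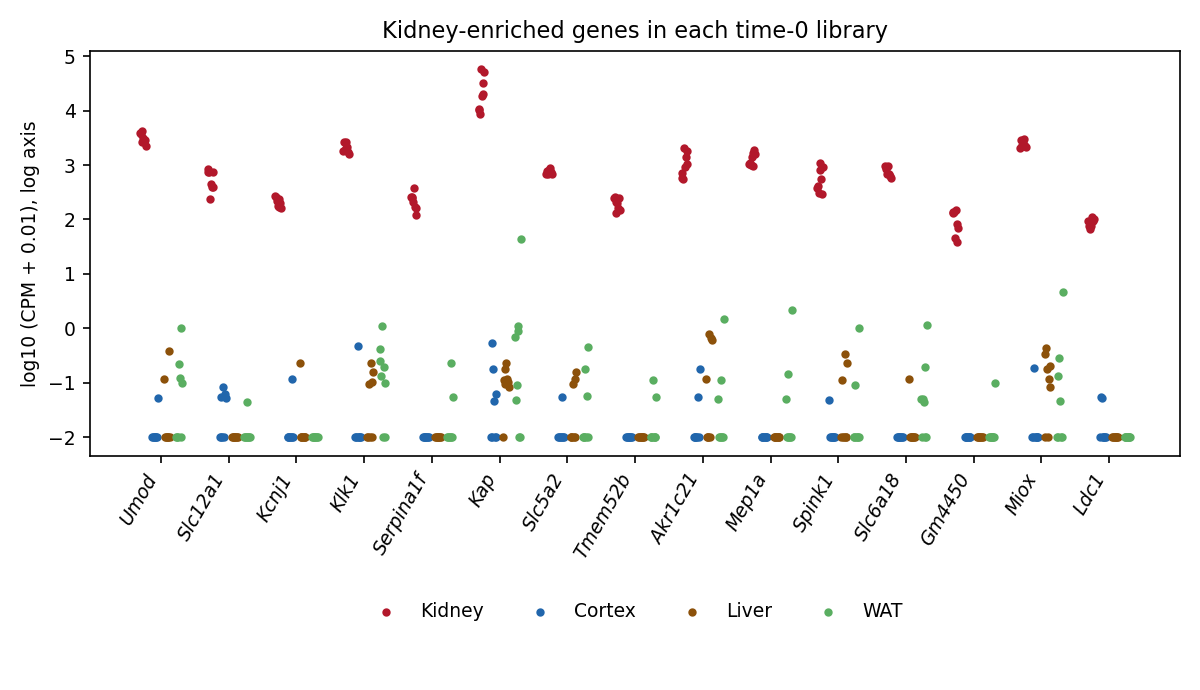
Level of the 15 leading kidney-enriched genes in each of the 32 time-0 libraries, as log10 of CPM + 0.01 (log axis), with 1 point per library coloured by tissue. Kidney points lie far above all others, and the highest points outside kidney belong mostly to WAT, where Kap reached 43.6 CPM.

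Compared per kilobase of exon, so that genes can be ranked against each other, Kap stood at 37006 CPM per kb and Gpx3 at 15242. Gpx3 encodes the plasma glutathione peroxidase that the proximal tubule secretes. Its kidney levels were 21078, 27588 and 34882 CPM. WAT also carried it, at 888 CPM on average, so its enrichment over WAT was 4.96 on the log2 scale (SE 0.29, adjusted p = 1.91e-15, edgeR). Cortex had 3.43 and liver 7.24 CPM. The other rows among the 8 highest per kb were 4 mitochondrial genes and the ribosomal-RNA-linked Gm23935 and CT010467.1, which stood at their height in replicate 8.

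Glomerular genes were enriched at far lower levels. In each gene list below, members beyond the 5 with the highest kidney level and those called lower were named after their values were seen. Of 17 podocyte markers, 15 were higher in kidney than the mean of the others, 2 were lower and 6 met the enriched rule. Their median log2 fold change was 2.54 (2.43 when groups at or under 3 counts were set to that floor), beside -0.02 for all genes. Nphs1 encodes nephrin of the slit diaphragm. It had 10.7, 22.3 and 31.01 CPM and was 3.65 higher than in cortex on the log2 scale (SE 0.23, adjusted p = 2.87e-13, edgeR). The lowest kidney library was above every other library.

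The glomerular basement membrane collagens Col4a3 and Col4a4 had median levels of 98.5 and 184 CPM and were 5.86 and 4.87 higher than in WAT. Clic5 and the transcription factor Lmx1b also met the rule. Other podocyte markers did not meet it. Synpo, an actin-binding protein, averaged 275 CPM in cortex, 2.34 lower in kidney on the log2 scale. Wt1, the podocyte regulator, averaged 34.0 CPM in WAT and 5.47 CPM at the kidney median, 2.45 lower in kidney. Podxl, podocalyxin, was higher than in each tissue but only by 0.79 over WAT. Plce1, a phospholipase, was 1 of the 2 members below the mean of the others (-1.32).

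Of 7 juxtaglomerular and mesangial markers, 6 could be tested, 5 were higher, 1 was lower and 2 were enriched. Renin, Ren1 (chr1:133350510-133360325, plus strand), had 38.6, 52.8 and 80.5 CPM, with at most 0.243 CPM in any other library. Its fold over WAT was 9.57 on the log2 scale (SE 0.35, adjusted p = 7.24e-19, edgeR). Serpine2, a protease inhibitor 3.16 lower than in cortex, was the lower one (-1.47). The pericyte receptor Pdgfrb was level with WAT at -0.01 (adjusted p = 0.974, edgeR).

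All 32 proximal tubule markers were higher in kidney than the mean of the others and 23 were enriched, with a median log2 fold change of 10.24 (10.25 with the floor). Slc34a1, the phosphate cotransporter NaPi-IIa, lies at chr13:55398187-55415592 and had 5255, 6464 and 8258 CPM. Its highest level elsewhere was 14.0 CPM. The endocytic receptors for filtered protein followed, with Lrp2 (megalin) at 831 to 2312 CPM and Cubn (cubilin) at 252 to 596. Both were enriched, by at least 6.99 and 9.88 on the log2 scale. Napsa, an aspartic protease, and Acsm2, a medium-chain acyl-CoA synthetase, had medians of 3532 and 2804 CPM.

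The 9 proximal markers that missed the enriched rule were mostly held by liver as well. Slc27a2, a very-long-chain acyl-CoA synthetase and fatty acid transporter, had a kidney median of 2927 CPM and a liver mean of 2021, a log2 difference of 0.63 (SE 0.40, adjusted p = 0.171, edgeR). Fbp1 differed from liver by -0.25 and Anpep by -0.06, and neither passed the test. Slc2a2, the glucose carrier GLUT2, was lower than in liver by 1.80, and Cyp2e1 by 4.65. Aqp1 missed by the width of the rule, at 1.98 over WAT.

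Amino acid, peptide and anion carriers of the proximal tubule followed. Of 18 listed, 17 could be tested, 16 were higher, 0 lower and 11 enriched, with a median of 6.56 (6.51 with the floor). Slc6a19, the main luminal neutral amino acid transporter, had 192, 210 and 336 CPM. Its partner Cltrn, collectrin, had 684, 938 and 1298. No other library exceeded 0.452 CPM for Slc6a19 or 1.65 CPM for Cltrn. The cystinuria pair Slc3a1 and Slc7a9 had medians of 643 and 115.2 CPM. Slc13a3, the basolateral dicarboxylate carrier, had a median of 1247 CPM and was 5.05 higher than in liver. Slc36a2, a proline and glycine transporter, was the tested member without a call: WAT averaged 115.7 CPM and the kidney median was 0.884.

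Organic ion and drug transporters included both enriched genes and genes held at like or higher levels by liver. Of 18 tested, 16 were higher, 1 lower and 9 enriched, with a median of 6.17 (6.70 with the floor). The urate exchanger Slc22a12 (URAT1) had 934, 1938 and 3663 CPM, and the basolateral organic anion transporters Slc22a6 (OAT1) and Slc22a8 (OAT3) had medians of 910 and 741. All 3 were enriched by at least 6.04 on the log2 scale. Slc22a2 (OCT2), the renal cation transporter, was enriched by 8.06. The apical exporter Slc47a1 (MATE1) was 1.13 higher than in liver and Abcc2 (MRP2) 1.15 lower. The member below the others' mean was Abcb1a (-1.09).

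Loop and distal genes were enriched at every step. Of 9 thin limb markers 8 were higher and 4 enriched (median 5.33, 5.30 with the floor). Of 18 thick limb markers 16 were higher, 1 lower and 12 enriched (median 9.62, 8.48 with the floor). Egf, whose precursor is made by the thick limb and distal tubule, had 291, 947 and 1470 CPM and was at least 8.74 higher than in each tissue. Bsnd, barttin, a chloride channel subunit, had a median of 82.9 CPM. The magnesium-pore claudins Cldn16 and Cldn19 had 9.06 and 46.1. Cldn14, which restricts that pore, was the lower member, with a kidney median of 0 CPM and a liver mean of 17.2.

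In the distal convoluted tubule all 16 markers were higher than the mean of the others, but 4 were enriched (5 without WAT replicates 6 and 8). The median was 4.19 (3.85 with the floor). The thiazide-sensitive cotransporter Slc12a3 had 676, 1276 and 1662 CPM, with at most 1.47 CPM elsewhere, and was 11.72 higher than in cortex (log2, SE 0.55, adjusted p = 4.86e-18, edgeR). Wnk4, its regulatory kinase, was at least 5.41 higher than in each tissue, and Kcnj16 at least 4.64. Several partners were as high or higher in cortex. Kcnj10, the channel that pairs with Kcnj16, averaged 143.5 CPM there and was 1.30 lower in kidney. Pvalb was 0.44 lower and Stk39, the kinase SPAK, 1.21 lower. Klhl3 differed by -0.13 (adjusted p = 0.43, edgeR).

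Connecting tubule and principal cell markers were higher in 18 of 20 cases, lower in 2 and enriched in 15 (median 9.81, 9.06 with the floor). Aqp2, the vasopressin-regulated water channel (chr15:99579055-99584547, plus strand), had 267, 317 and 423 CPM and was 8.94 higher than in WAT (log2, SE 0.30, adjusted p = 2.71e-18, edgeR). Its receptor gene Avpr2 had a median of 24.1 CPM, with 0 counts over all liver and WAT libraries. The beta and gamma subunits of the epithelial sodium channel, Scnn1b and Scnn1g, were enriched by at least 7.40 and 7.81. The alpha subunit Scnn1a was not, being 1.07 higher than in liver. Nr3c2, the mineralocorticoid receptor, was lower than the mean of the others (-0.68), with 39.5 CPM in cortex. Hsd11b2, the enzyme that keeps cortisol-like steroids off that receptor, was enriched by 7.01. St6gal1 was the other lower member (-1.23).

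Intercalated cells, the acid and base secreting cells of the collecting duct, gave 18 of 20 markers higher, 1 lower and 15 enriched (median 7.88, 7.64 with the floor). The bicarbonate exchangers Slc4a1, Slc4a9 and Slc26a4 (pendrin) had medians of 36.3, 81.2 and 62.99 CPM and smallest log2 folds of 7.41, 7.13 and 3.88. The ammonia channel Rhcg had 89.6 to 161 CPM. Its fold over WAT was 8.96 on the log2 scale and 14.23 without WAT replicates 6 and 8, whose highest library held 39.5 CPM. Kit was the lower member (-0.54).

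**Figure D2:**
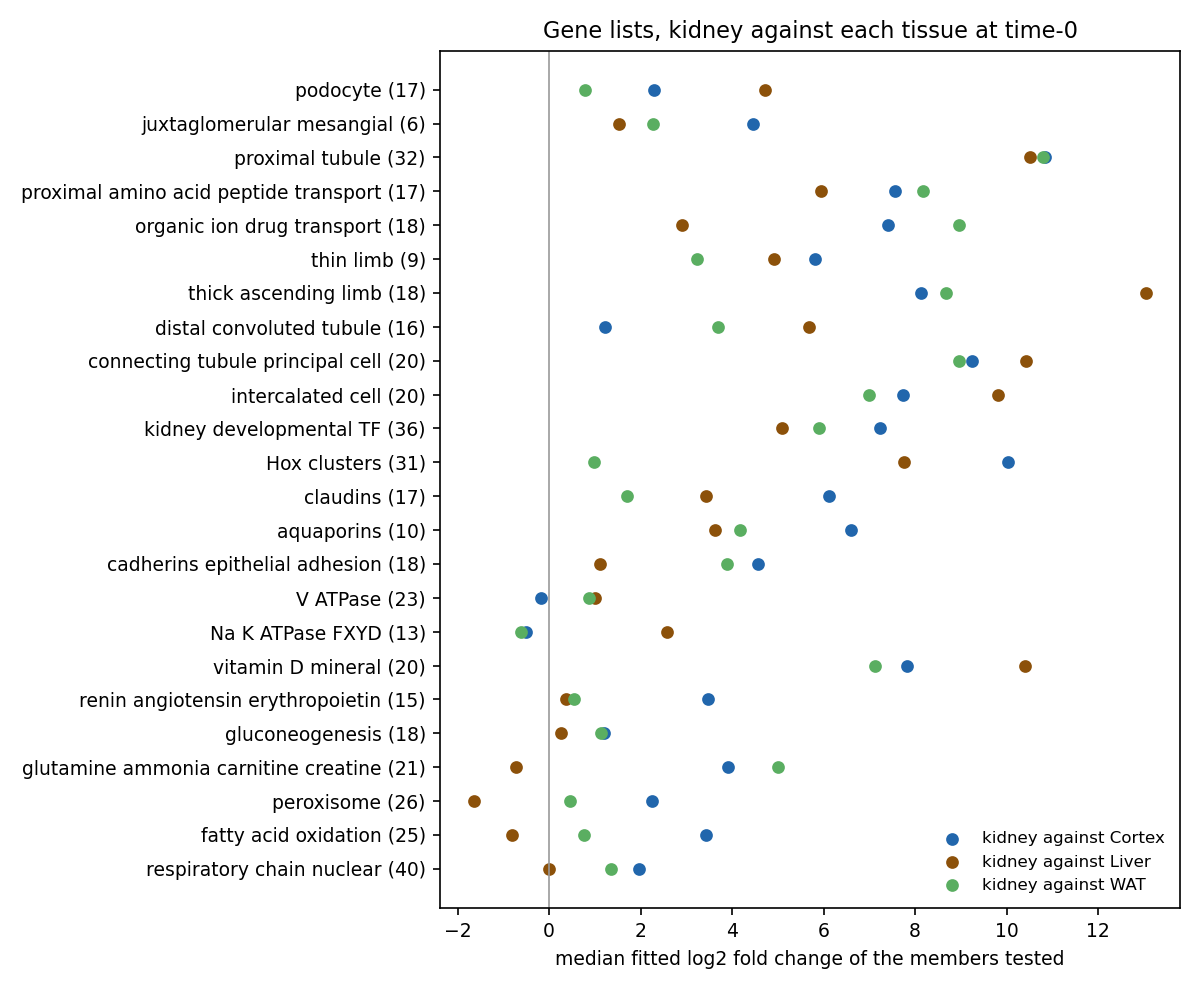
Median fitted log2 fold change of the tested members of each gene list (number tested in brackets), kidney against cortex, liver and WAT separately, at time-0. Nephron segment lists lie to the right of 0 against every tissue, while peroxisome and fatty acid oxidation lists lie to the left of 0 against liver, at -1.64 and -0.80.

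Most transcription factors known from kidney development were higher in the adult kidney than elsewhere. Of 37 listed, 36 could be tested, 33 were higher than the mean of the others, 0 were lower and 22 were enriched (23 without WAT replicates 6 and 8). The median was 6.16 (5.57 with the floor). Pax2 and Pax8, needed for the nephric lineage, had medians of 42.5 and 69.9 CPM. Their folds over WAT, 7.79 and 5.88 on the log2 scale, became 12.02 and 10.05 without WAT replicates 6 and 8, and the highest WAT library held 84.2 CPM of Pax8.

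Hnf4a, a regulator common to hepatocyte and proximal tubule, had 698, 755 and 997 CPM, and liver averaged 784. The difference was 0.02 (SE 0.42), and the ranges overlapped. Irx1, Irx2, Irx3, Lhx1, Esrrb, Tfap2b and Foxi1 all met the enriched rule, by between 3.78 and 8.25 at their smallest. Foxi1 moved from 7.14 to 11.51 over WAT without WAT replicates 6 and 8, and Pou3f3 from 7.49 to 13.33. Pou3f3 was level with cortex, with a median of 102.6 CPM in kidney and a mean of 104.5 in cortex (log2 difference 0.00). The nephron progenitor gene Eya1 had a kidney median of 0 CPM.

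The Hox genes, which mark position along the body axis, separated kidney from cortex and liver but less so from WAT. Of 39 Hox genes 31 could be tested, and all 31 were higher than the mean of the others. The median was 5.88 (4.64 with the floor), 10.03 against cortex and 0.98 against WAT. Hoxd8 had 78.3, 102.4 and 117.6 CPM in kidney, 0 counts over cortex and 34.9 CPM on average in WAT. Hoxa7 was 1.38 higher than in WAT. The groups Hoxa9, Hoxa10, Hoxb9, Hoxc10, Hoxc11, Hoxd10 and Hoxd11 met the enriched rule, by 2.58 to 4.14 over WAT. Hoxc8 went the other way, averaging 100.4 CPM in WAT with a kidney median of 8.80 (log2 -3.38). Without WAT replicates 6 and 8, 14 Hox genes met the rule in place of 7. Among them Hoxb7 moved from 0.98 to 2.67 over WAT, Hoxb8 from 1.62 to 3.44 and Hoxb9 from 2.74 to 4.74.

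Promoter sequence was searched for letters that transcription factors of this list are known to bind, on both strands of the 250 bases before each RefSeq gene start (GRCm38.p6). CAAAGTCCA, a form of the HNF4 site, occurred in 0.381% of 27025 windows and in 57 of 13150 tested genes with a window (0.433%). It occurred in 6 of 490 enriched genes with a window (1.22%). Among genes shared by kidney and liver, as defined below, it occurred in 0 of 183 with a window. TCAAGGTCA, an estrogen-related receptor site, occurred in 33 tested genes (0.251%) and in 0 of 490 enriched genes. For both runs of letters, these sets are too small for such low shares to be compared. No test was made of these shares, and a match is only a run of letters.

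The matches in 3 enriched genes are shown in capitals, read 5′ to 3′ on the strand of the gene, so that the letters behind these counts can be read in place. They are the 3 with the highest kidney level whose stretch overlaps no annotated exon. Slc3a1, the cystinuria subunit described above, is shown at chr17:85028268-85028346 (plus strand, 639 CPM on average in kidney). Treh, trehalase of the brush border, is shown at chr9:44673122-44673210 (plus strand, 138.1 CPM). Cdcp1, a membrane glycoprotein, is shown at chr9:123216148-123216236 (minus strand, 33.7 CPM). In Treh and Cdcp1 the letters lie on the opposite strand to the gene.
Slc3a1: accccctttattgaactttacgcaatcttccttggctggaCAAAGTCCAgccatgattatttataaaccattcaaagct
Treh: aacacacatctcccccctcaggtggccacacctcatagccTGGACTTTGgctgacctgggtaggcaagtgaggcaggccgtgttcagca
Cdcp1: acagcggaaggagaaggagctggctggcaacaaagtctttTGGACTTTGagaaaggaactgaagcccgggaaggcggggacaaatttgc
The match began 39 bases before the start in Slc3a1, 71 in Treh and 158 in Cdcp1.

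Families of related genes divided their members between tissues. Of 24 vacuolar proton pump genes 23 could be tested. The list as a whole was only slightly higher (median 0.88, 0.89 with the floor), with 17 higher, 2 lower and 4 enriched. The 4 were subunits known from intercalated cells. Another subunit among the intercalated cell markers, Atp6v0d2, did not meet the rule. Atp6v0a4 had 148, 224 and 251 CPM and Atp6v1b1 had 54.98 in the lowest library and 103.8 at the median. Atp6v1g3 had 39.0 to 83.8 CPM and Atp6v1c2 25.4 to 36.9. Their sister subunits Atp6v0a1 and Atp6v1g2 averaged 489 and 370 CPM in cortex and were the 2 lower members, 2.86 and 6.55 lower than in cortex. The common subunits Atp6v1a and Atp6v1e1 differed from cortex by -0.03 and -0.17, and neither passed the test.

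Of 14 sodium pump genes 13 could be tested, 5 were higher, 5 lower and 3 enriched (median 0.08). The tubular regulators Fxyd2 and Fxyd4 were enriched, with medians of 3267 and 40.7 CPM. Fxyd1, known from liver and muscle, was 6.18 lower than in liver.

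Of 22 claudins, the sealing and pore proteins of tight junctions, 17 could be tested, 11 were higher, 3 lower and 7 enriched (median 2.92). Cldn2, the cation pore of the proximal tubule, had 361, 406 and 470 CPM, and its fold over WAT of 7.24 became 12.37 without WAT replicates 6 and 8. Cldn10 had 120 to 265. Cldn4 and Cldn7 of the collecting duct had WAT medians of 0 and 0.0811 CPM, and their folds over WAT of 3.24 and 4.13 became 9.52 and 8.51 without WAT replicates 6 and 8. Cldn5, the endothelial claudin, was lower in kidney (-1.10).

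Of 12 aquaporins 10 could be tested, with 7 higher, 1 lower and 3 enriched (median 4.68, 4.58 with the floor). Aqp2, Aqp3 and Aqp6 were the enriched 3. Aqp1 was the most abundant at 989 to 1142 CPM, and WAT carried it at 279. Aqp7, the glycerol channel, averaged 82.4 CPM in WAT and had a kidney median of 17.5. Aqp9, the hepatic glycerol channel, met the depleted rule, with a kidney median of 0.0261 CPM and 604 CPM on average in liver. Of 19 adhesion genes 18 could be tested, 14 were higher, 2 lower and 5 enriched (median 2.68, 2.57 with the floor). Cdh16, kidney cadherin, had 966, 1149 and 1252 CPM, and its fold over WAT of 9.86 became 15.31 without WAT replicates 6 and 8. Cdh2 and Pkd1 were the 2 lower members (-2.45 and -1.11).

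**Figure D3:**
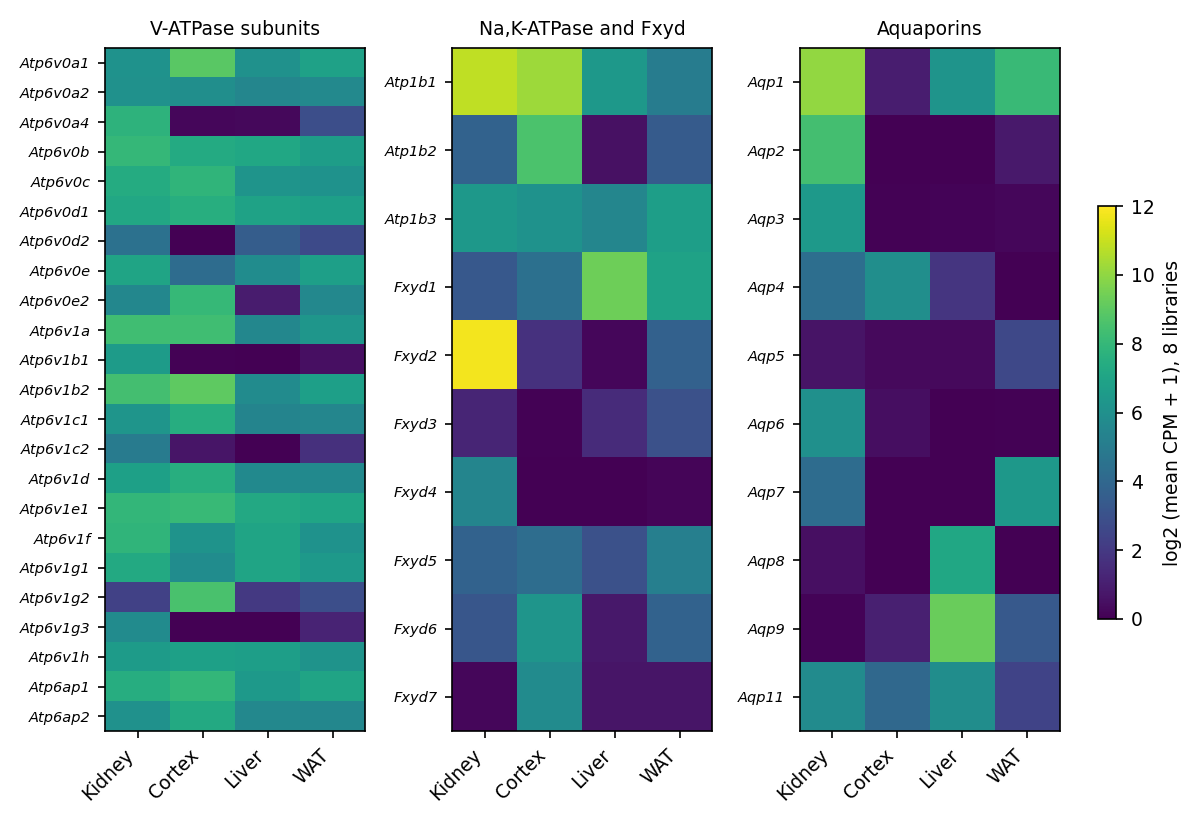
Mean level by tissue (8 time-0 libraries each) of vacuolar proton pump, sodium pump and aquaporin genes, as log2 of mean CPM + 1. Some sodium pump genes are not drawn. Atp6v1b1 and Fxyd2 lead in kidney, while Atp6v1g2 leads in cortex.

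Vitamin D and mineral handling genes were higher in kidney in 15 of 20 cases, 3 lower and 12 enriched (median 9.75, 9.09 with the floor). Cyp27b1, which makes the active hormone, was low in level at 2.26, 4.33 and 9.03 CPM yet enriched by 3.36 over cortex. Cyp24a1, which inactivates it, had 49.3, 77.8 and 104.3 CPM. The receptor Vdr had a median of 232 CPM and was 7.28 higher than in WAT. Pth1r, the parathyroid hormone receptor, had 647 to 1146 CPM. Kl (klotho), the co-receptor for FGF23, had 175, 363 and 672 CPM and was 5.60 higher than in cortex. Cyp2r1, the hepatic 25-hydroxylase, was lower (-1.02), as were the ubiquitous phosphate carriers Slc20a1 (-0.96) and Slc20a2 (-0.29).

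Of 18 genes of the renin-angiotensin and erythropoietin axes 15 could be tested, 8 were higher, 2 lower and 3 enriched (median 0.47, 0.75 with the floor). Without WAT replicates 6 and 8 the counts were 10 and 3. Ren1 and the peptidase Ace were among the enriched genes, and Ace had a median of 289 CPM. Agt, the substrate of renin, was a liver gene at 1445 CPM on average, and its difference from the equal-weight mean did not pass the test (-0.43, adjusted p = 0.0539, edgeR). Without WAT replicates 6 and 8 it was lower (-0.47, adjusted p = 0.0248, edgeR). Epas1 and Lnpep were the lower genes (-0.65 and -0.49).

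Glucose production genes were mostly held by liver too. Of 18 gluconeogenesis genes 14 were higher than the mean of the others, 2 lower and 1 enriched, Fbp2 (median 1.04). Pck1, the cytosolic phosphoenolpyruvate carboxykinase, had 1189, 2057 and 3431 CPM in kidney. Liver averaged 3846 and WAT 2093, log2 differences of -0.96 and -0.05. G6pc had a median of 293 CPM and differed from liver by 0.49 (adjusted p = 0.0912, edgeR). The alanine transaminases Gpt and Gpt2 were the lower genes, by 4.38 and 2.94 against liver.

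Of 21 glutamine, creatine and amino acid handling genes 17 were higher, 2 lower and 6 enriched (median 3.42, 3.68 with the floor). Gatm, the first enzyme of creatine synthesis, had 248, 444 and 680 CPM and was at least 2.75 higher than in each tissue. Gamt, the second enzyme, averaged 492 CPM in liver and was 4.22 lower in kidney. Dao, D-amino acid oxidase, and Miox were enriched, and their folds over WAT of 10.38 and 12.72 became 15.23 and 15.47 without WAT replicates 6 and 8. Ass1, a urea cycle enzyme, had a median of 3152 CPM against a liver mean of 5092 (log2 -0.73).

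By their list medians, respiratory chain and fatty acid oxidation genes were higher than in cortex and WAT and level with or below liver. Single members differed from this. All 40 of 41 respiratory chain genes that could be tested were higher than the mean of the others (median 1.15, 1.19 with the floor), and 1 was enriched. Against liver the list's median was -0.01 and 10 of the 40 were higher. Atp5b of the ATP synthase had 2692, 3090 and 3386 CPM and was 1.05 higher than in liver. Fatty acid oxidation had 22 of 25 tested genes higher, 2 lower and 0 enriched (median 1.22, against liver -0.80). Acadm, the medium-chain dehydrogenase, was 0.69 higher than in liver.

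Of 26 peroxisomal genes 15 were higher, 5 lower, 1 enriched and 2 depleted (median 0.31, 0.36 with the floor). Hao2, a hydroxyacid oxidase, was enriched with 138.2, 386 and 757 CPM. Its relative Hao1 and the urate oxidase Uox averaged 337 and 2799 CPM in liver and had kidney medians of 0. Abcd2, a very-long-chain fatty acid carrier, was depleted against all 3 tissues.

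Genes shared with 1 tissue were defined as at least 2 on the log2 scale above 2 tissues and within 1 of the third. Liver shared 274 such genes (1.49% of those tested), WAT 146 (0.793%) and cortex a similar number (0.766%). The liver set included genes of fructose and polyol metabolism. Khk, ketohexokinase, had a median of 1013 CPM against 870, and Sord, sorbitol dehydrogenase, 1514 against 2208. With cortex, kidney shared Atp1b1, the beta subunit of the sodium pump (1812 against 1224 CPM), Atp6v1a and Plekhb2. With WAT it shared Tns1 (1054 against 1019 CPM), Sod3, the extracellular superoxide dismutase, and Gas6.

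Kidney-depleted genes were fewer, and 37 of the 173 averaged at least 10 CPM in each of the other tissues. In 74 of the 173 every kidney library lay below all others, and over all genes tested 228 (1.24%) did so. Vtn, vitronectin (chr11:78499091-78502324, plus strand), had 0, 0.221 and 0.548 CPM in kidney. Cortex averaged 46.9, liver 4416 and WAT 11.6 CPM, and kidney was 5.62 lower than WAT (log2, SE 0.32, adjusted p = 1.10e-15, edgeR). Nrn1, neuritin, had a kidney median of 0.146 CPM and was at least 4.29 lower. Adam23, a cell adhesion protein, had a median of 0.291 CPM against 130.9 in cortex. Serpina3n had 0.818 CPM against 353 in liver and 256 in WAT. Ppp1r3c, which targets a phosphatase to glycogen, Clstn3 and the small GTPase Rhou had medians of 1.57, 1.35 and 3.50 CPM.

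Within kidney, 538 genes (2.92%) were higher in the M libraries and 402 (2.18%) in the F libraries, by edgeR's quasi-likelihood test. The F libraries are replicates 1, 2, 3 and 5 and the M libraries 4, 6, 7 and 8. The deposited table also gives each library a group code, L5 or L6, whose meaning is not stated. In cortex, liver and WAT every F library is L5 and every M library L6. Kidney follows this apart from replicate 1 (F, L6) and replicate 4 (M, L5). Sex differences in the other tissues cannot be told apart from this code, and those in kidney only in part. Contrasts of the sex difference in kidney with that in the other tissues share this limit. Each tissue, kidney included, has as many L5 as L6 libraries. Of the 940 genes called, 772 had F and M groups that did not overlap, and over all genes tested 2608 (14.2%) did not. Among the enriched genes 56 were M-higher (7.87%) and 24 F-higher (3.37%). The split depended on scaling: with library totals alone it was 222 and 1598, and with upper quartile factors 440 and 534. Leaving out replicate 8, the library rich in ribosomal-RNA rows, gave 313 and 230. Leaving out replicate 7 gave 931 and 648, and leaving out WAT replicate 6 gave 844 and 723. Without replicates 1, 2 and 3 in turn the M-higher counts were at most 345, and without replicates 1, 4 and 6 the F-higher counts were 257, 249 and 267.

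The 6 largest M-higher differences were in Slco1a1, Slc7a13, Mpped1 and the Y-linked genes Eif2s3y (12.32), Ddx3y (12.24) and Uty (10.57, log2). Slco1a1, an organic anion transporter, had 0.0548, 0, 0.0388 and 0.0479 CPM in the F libraries and 175, 265, 286 and 391 in the M libraries. The log2 difference was 12.72 (SE 1.10, adjusted p = 8.08e-08, edgeR). Slc7a13, the proximal straight tubule transporter, averaged 0.792 ± 0.262 CPM in F and 766 ± 30.9 in M (SD, n = 4 each). Its log2 difference was 9.90, with groups that did not overlap. Cyp4b1, a fatty acid hydroxylase, averaged 143.8 ± 33.5 CPM in F and 4561 ± 909 in M, and Cyp2e1 88.3 ± 28.5 and 1395 ± 195.

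The M-higher difference in Cyp4b1 exceeded the mean sex difference in the other tissues by 4.92 on the log2 scale (adjusted p = 3.08e-09, edgeR), and that in Cyp2e1 by 2.94 (adjusted p = 0.0394, edgeR). Such a difference from the other tissues was called for 1.88% of all genes tested. Odc1, which starts polyamine synthesis, was 1.79 higher in M and Cyp7b1 5.81 higher. Mpped1 had 0 CPM in every F library and 5.64 to 9.84 in M. Kap averaged 11974 ± 4289 CPM in F and 40353 ± 17388 in M. The difference of 1.75 did not pass the test (adjusted p = 0.356, edgeR), although all M libraries lay above all F libraries. It passed without WAT replicates 6 and 8 (adjusted p = 0.0328, edgeR) and in a fit of the kidney libraries alone (adjusted p = 0.0122, edgeR).

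On the F-higher side, Abcc3, a conjugate exporter, averaged 181 ± 38.2 CPM in F and 3.95 ± 0.547 in M. The log2 difference was -5.51 (SE 0.26, adjusted p = 2.60e-15, edgeR), and -5.51 relative to the mean sex difference of the other tissues. Prlr, the prolactin receptor, averaged 236 ± 29.0 CPM in F and 9.60 ± 2.18 in M. Hdc, which makes histamine, had 155, 61.8, 32.3 and 27.3 CPM in F and at most 0.577 in M. Tmprss6, the hepcidin-controlling protease, was 7.43 higher in F and liver averaged 631 CPM.

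Of 9 genes known as male-biased in mouse kidney 7 were called M-higher, and of 7 known as female-biased 5 were called F-higher. Acsm3, listed among the female-biased, was M-higher by 7.50, with 617 ± 150 CPM in M and 3.38 ± 1.52 in F. Igf2 and Myh1 were F-higher by 7.94 and 7.56, at levels under 12.5 and 10.5 CPM. Cyp11a1, the adrenal steroid enzyme, was called F-higher (-9.62, adjusted p = 0.0181, edgeR) on the 19.8 CPM of replicate 3. Without that library its adjusted p was 0.251 (edgeR).

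**Figure D4:**
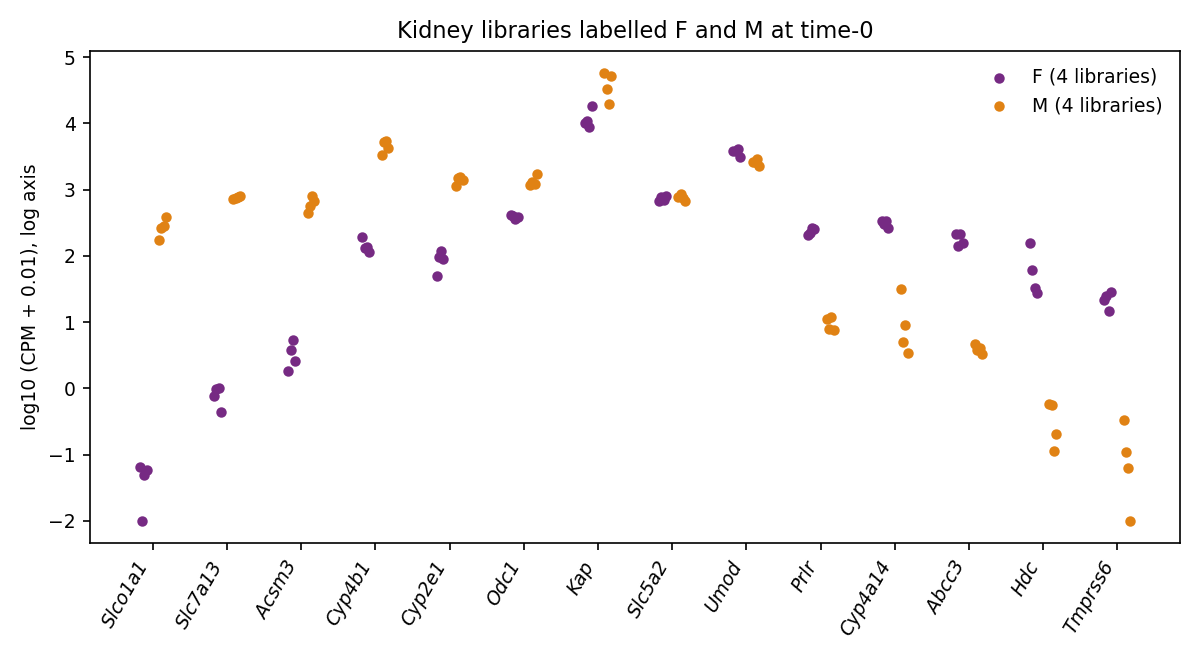
Levels of sex-differing genes in the 4 F and 4 M kidney libraries at time-0, as log10 of CPM + 0.01 (log axis), 1 point per library. Slco1a1, Slc7a13 and Cyp4b1 are higher in every M library, while Abcc3, Prlr and Hdc are higher in every F library.

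Markers known from other cells were measured too, and their levels alone do not show which cells the pieces held. Of 17 endothelial markers 10 were higher than the mean of the others, 4 lower and 0 enriched (median 0.50). Against WAT alone 3 of the 17 were higher, with a median of -0.69. Plvap, of fenestrated capillaries, had a median of 208 CPM and was at least 1.58 higher than in each tissue. Of 7 tested erythroid markers 5 were higher, 1 lower and 1 enriched (median 1.52). The enriched member was Slc4a1, which is also counted among the intercalated cell markers above. The erythroid list had a summed level of 206.6 to 817.9 CPM in kidney and 184.7 to 215.6 in cortex. Of 20 tested leukocyte markers 4 were higher and 11 lower (median -0.65), with a summed level of 123.6 to 214 CPM in kidney and 1107 to 1732 in WAT. Hepatocyte markers summed to 205 to 346 CPM in kidney and 184500 to 292500 in liver. Neuron and glia markers summed to 55.2 to 97.4 CPM in kidney and 15500 to 18230 in cortex. Adipocyte markers summed to 1764 to 2866 CPM in kidney and 25050 to 66220 in WAT, with Lpl the largest at a kidney median of 992.

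Urothelial markers, from the lining of the renal pelvis, were higher than the mean of the others in 7 of 9 tested and enriched in 4. Their summed level was 26.1 to 65.7 CPM in kidney but 167.5 to 680.9 in WAT, and 4 of the 9 were higher than in WAT. The enriched members Krt15, Upk1a, Upk2 and Upk3a all missed the rule in the control libraries and all met it in the TLS libraries. Upk3a and Upk1a had medians of 6.36 and 5.99 CPM, and Krt5 met the enriched rule only without WAT replicates 6 and 8 (1.35 and 6.63 over WAT). Brown fat genes were enriched in 2 of 7 tested, Cox7a1 and Ucp1, and Ucp1 ran from 0.247 to 17.7 CPM between kidney libraries. Adrenal markers summed to 1.72 CPM in the lowest kidney library and 229 in replicate 3, with 2 of 15 at 0 throughout. The part of these tissues in the kidney differences was not tested. Without kidney replicates 3 and 8 the number of enriched genes was 727.

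The same fit was repeated on control and TLS libraries, where the titles give the tissues of 1 mouse the same animal code. The fit leaves that sharing out, and with the animal as a block the counts were 726 in controls and 690 under TLS. In the control libraries 714 of 18673 genes (3.82%) met the enriched rule, and 636 of them were among the 712 found at time-0. That is 89.3% of the time-0 list and 89.1% of the control list. In the TLS libraries 686 of 18605 (3.69%) met it, 610 of them shared, or 85.7% of the time-0 list and 88.9% of the TLS list. All 15 leading genes were enriched in both fits.

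Of the 712, 697 could be tested in control libraries and all 697 were higher in kidney than in each tissue. In TLS libraries 679 could be tested and 678 were higher than in each. The exception, named after its values were seen, was Igha, the heavy chain of immunoglobulin A: its smallest log2 fold was 2.23 at time-0, 1.73 in controls and -0.98 under TLS. The median smallest fold of the time-0 list was 4.22 at time-0, 4.25 in controls and 3.83 under TLS. The level of kidney genes in WAT moved with that value. Without TMM scaling, the 15 leading kidney genes summed to 0.252, 53.7 and 929 CPM (lowest, median, highest) in TLS WAT. In control WAT they summed to 0.140, 0.845 and 7.48 CPM. In kidney they summed, on the same scale, to a median of 31020 CPM under TLS and 36560 in controls. Their part in the result was not tested.

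**Figure D5:**
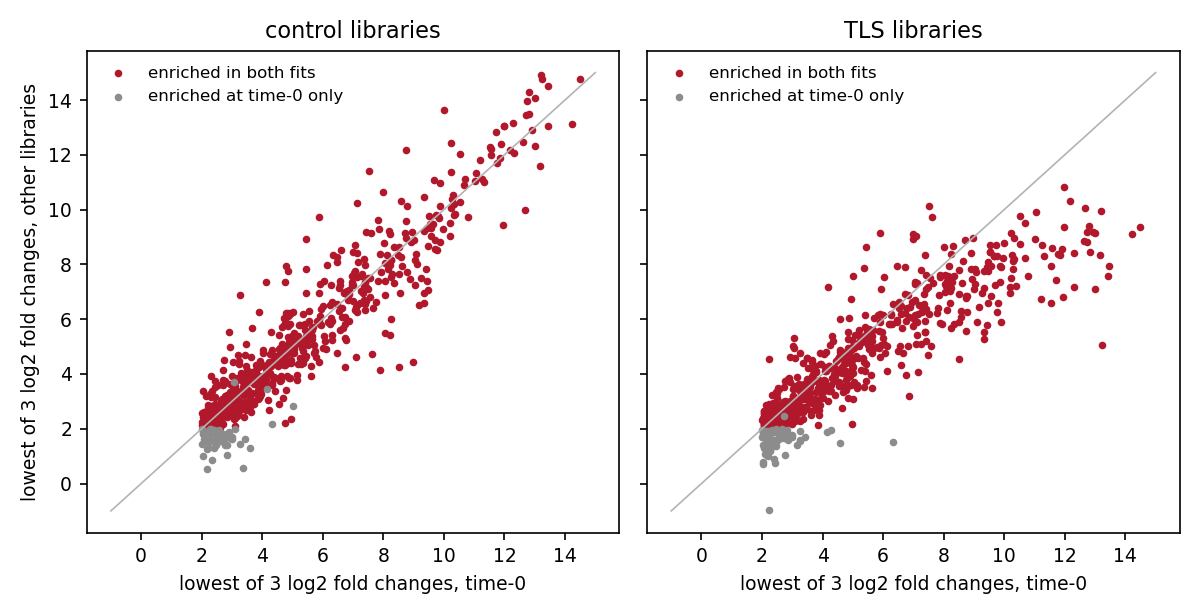
Smallest of the 3 log2 fold changes of each time-0 kidney-enriched gene, time-0 on the horizontal axis and control or TLS libraries on the vertical axis, with the line of equality. Points called enriched in both fits are red, 636 for controls and 610 for TLS, and the others are grey.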

How the data were processed

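Whole-tissue polyadenylated RNA was sequenced after NEBNext Ultra II library preparation, per the labels' protocols. The authors deposited 1 table of raw counts of 55401 gene rows in 95 libraries, whose first line calls the counts corrected, per the file headers. What was corrected, the strand setting and the annotation are not given in the sources used here. The submitters' processing notes name STAR 2.7.10, DESeq2, DESeq and mm10/GRCm38, with no roles. Without a known strand setting, reads of overlapping antisense genes cannot be told apart.

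The 32 time-0 libraries (14304253 to 22921038 counts) were grouped by tissue and sex labels. Genes passing filterByExpr (minimum count 10) were scaled by TMM and fitted with edgeR 4.0.16 (R 4.3.3, limma 3.58.1) by robust quasi-likelihood, with 1 mean for each tissue and sex, and p-values were adjusted by Benjamini-Hochberg over all 18419 genes. Kidney was contrasted with the equal-weight mean of the other tissues and with each tissue. Log2 fold changes come from the fit. Against groups at or under 3 counts they are no bounds, and list medians are also given with such groups set to that floor. Standard deviations are over libraries, and intervals were not computed for single libraries. The control (31) and TLS (32) libraries were fitted likewise. The fit was tested on simulated data of 17877 genes, where 100% of 196 changed genes were recovered for kidney against the other tissues and 11 unchanged genes were called. There every gene had 1 common dispersion and the same mean in all tissues, apart from 4-fold changes in kidney. The real tissues differ in far more genes, so this result says little of the fit on these data.

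Members and lists were chosen with earlier results of these data known. Genes were named by rule: the 15 enriched and 8 depleted genes with the largest smallest-of-3 change, the 5 members of each list with the highest kidney level, members called lower, the 6 largest sex differences each way, the leading shared genes, and the 8 highest per kilobase. A further rule took the 5 genes of at least 10 CPM, X and Y genes left out, that varied most among the kidney libraries within each sex. Other list members, Igha and the promoter genes were named after their values were seen. Some genes are not reported here. Gene positions and lengths are GENCODE M21 for GRCm38, and 53180 of 55291 symbols matched once. Alternatives were other scalings, filters, thresholds, DESeq2 1.42.0, limma voom, designs and left-out tissues or libraries. Those leaving out kidney replicates 3 and 8 together, WAT replicates 6 and 8, liver replicate 1 or ribosomal-RNA rows, and those for the control and TLS libraries, were chosen after seeing the data.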

Additional observations from a re-analysis of the deposited data

Results flagged for a closer look

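Within the 8 kidney libraries, 264 gene and list levels were screened for 1 library far from the other 7 on the log2 CPM scale, and chance alone sets such a value apart in about 5% of screens. Here 12 screens (4.5%) did so, a share near that of chance, and the gaps of Cpt1a, Mc2r and Tagln (0.531, 0.535 and 0.538 of the range) lie just past the limit. Replicate 3 stood apart on the adrenal list (a score of 2.207) and on its members Star (5.774), Cyp11a1 (4.318), Akr1b7 (3.805) and Mc2r (-0.3206). Replicate 8 stood apart on the ribosomal-RNA-linked rows CT010467.1 (18.23), Gm23935 (14.25), Gm24270 (9.277), Gm15564 (8.716) and Gm24187 (8.06). These rows were named because they varied most among these same libraries, so their flags were close to fixed in advance. The share of 4.5% is thus no fair count beside that of chance. Replicate 7 was high in Cpt1a (8.998), which brings fatty acids into mitochondria. Replicate 4 stood apart on the smooth muscle gene Tagln (6.677). Without passing the limit, it also had the lowest score on several nephron lists, such as podocyte (-0.67), intercalated cell (-0.585) and thick ascending limb (-0.526). On the proximal tubule list it was not the lowest (0.135), and on the respiratory chain list it was the highest (0.612).

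The M minus F difference in kidney differed from the mean M minus F difference of the other tissues for these described genes, by edgeR's interaction contrast on the log2 scale. It was more positive in kidney for Cyp4b1 (4.92), Cyp2e1 (2.94) and Odc1 (1.56). It was more negative for Tmprss6 (-8.14), Hdc (-7.73), Abcc3 (-5.51), the complement gene C8a (-4.14), Prlr (-3.16), Serpine2 (-1.86), Clstn3 (-1.62) and transferrin, Trf (-1.44). The rows CT010467.1 (5.47), Gm23935 (5.44), Gm24270 (5.44) and Gm24187 (5.36) also differed, and kidney replicate 8, an M library, held their highest kidney levels.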

How the results depend on the processing

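Across 35 alternatives, 7172 of 7474 values of named genes kept their direction and side of the threshold, 154 lost the call, 96 gained one and 52 changed sign. The 23 leading enriched and depleted genes kept both in 713 of 713 values. At a log2 threshold of 1, 1149 genes were enriched and 440 depleted, and at 3, 74 were depleted. Enriched and depleted genes numbered 1196 and 467 without cortex, 1370 and 1103 without liver and 1090 and 361 without WAT, where 1 condition fewer has to be met. Leaving out 1 kidney library gave 712 to 724 enriched, 170 to 191 depleted, 6205 to 6528 higher and 5091 to 5436 lower genes. Genes shared with liver then numbered 269 to 279. The share of higher among called genes was 55% and ran from 47.1% (DESeq2) to 60.9% (library totals). The median over all genes moved by over 0.1 only with no low-count filter (-0.2071).

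Counts of sex-differing genes moved as well. Leaving out 1 kidney library gave 313 to 931 M-higher genes, 230 to 648 F-higher genes and 212 to 476 genes whose sex difference differed from the other tissues. In that order they were 694, 736 and 712 by DESeq2, 682, 497 and 537 by voom, and 222, 1598 and 506 with library totals. They were 229, 178 and 153 without kidney replicates 3 and 8, 844, 723 and 597 without WAT replicate 6, and 819, 703 and 557 without WAT replicates 6 and 8. Kidney libraries alone gave 728 M-higher and 702 F-higher genes. The cause was not tested.

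The replicate block used the animal number. For numbers other than 4 and 5, whether a number stands for 1 mouse in every tissue is not known here. The 24 same-number pairs had a mean correlation of 0.0026, beside -0.0003 for pairs of unlike number, and 6 correlated best with their own number. Such correlations between tissues cannot show whether the samples are paired. Kidney numbers 4 and 5 carry another sex label than in the other tissues. By these labels neither number stands for 1 mouse in every tissue. With the block, numbers 4 and 5 included, 737 genes were enriched, 704 of them shared with the fit without it. In that fit 6365 were higher and 5597 lower. With the block and without animals 4 and 5, 719 genes were enriched. In control and TLS libraries the tissues of 1 mouse share an animal code, and with it as a block 726 and 690 genes were enriched in place of 714 and 686, with 646 and 613 of them shared with time-0.

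Signs of the difference from the mean of the others changed as follows (log2). Tmprss6 was 0.3142 with additive sex, 0.6657 with no sex term, 0.3032 with the replicate block, 0.2494 with the block without animals 4 and 5, 2.059 in F libraries only and 1.256 without liver. In F libraries only, Cyp2e1 was -0.2274, Gm23935 -1.124, CT010467.1 -0.8688, Gm24187 -1.118, Gm24270 -0.9921 and Gm15564 -0.5367. In M libraries only, Prlr was -0.4394 and Hdc -2.483. Without cortex, Kit was 0.273, Pck1 -0.5059, Pcx -0.1462, Cat -1.11, Scp2 -1.225, Cyp2e1 -3.628, Acsm3 -0.2299, Prlr -0.5444, Igkc -0.6624, Col1a2 -0.5938, Col1a1 -0.6419, Upk3b -2.097, Chgb 0.5601, Fga -1.448, Serpina1a -2.222, Gpd1 -0.3037, Fabp4 -2.018, Syp 0.9356 and Mbp 0.7672. Without liver, Synpo was -0.7504, Atp1b3 -0.03669, Cyp2r1 0.6983, Slc20a2 0.03128, Col1a2 -0.2715, Col1a1 -0.4145, Acta2 -0.3347 and Tmem119 -0.9305. Without WAT, Lyz2 was 0.5275, Serpina1a -0.1641 and Car3 0.4624. Without kidney replicate 8, Gm23935 was -0.5479, CT010467.1 -0.1215, Gm24187 -0.4497 and Gm24270 -0.3516, and without replicates 3 and 8 they were -0.4147, -0.01917, -0.2883 and -0.1893, while without liver replicate 1 they were 1.88, 2.236, 1.92 and 2.058. Genes with few counts in the other tissues limit the precision of the largest fold changes.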
